A study of Danio rerio with 6 samples.

Results

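The phototransduction genes of rods and cones were followed in zebrafish larvae kept in 4-octyl itaconate and in control larvae, in a study of neuromast development. Members were all gene rows whose symbol begins with the name of a visual opsin, a photoreceptor transducin or phosphodiesterase subunit, a visual arrestin, an opsin kinase, recoverin, a guanylate cyclase or its activator. The names of cyclic nucleotide-gated channels, rgs9, peripherin, rom1, rpe65 and rlbp1 were also taken. This gave 69 of the 24470 gene rows, of which 15 were set down as rod members, 29 as cone members and 15 as members of both or of unsure place. Another 5 belong to pigment epithelium and Müller glia, and 5 are known mainly from outside rods and cones. All larvae carried the transgene Tg(Brn3C:mGFP), which puts a membrane-bound green fluorescent protein into hair cells and a set of retinal ganglion cells, and were collected at 5 days post fertilization (dpf). The 3 treated libraries came from larvae given 4-octyl itaconate, an itaconate ester that enters cells, at 2.5 µM for 48 h from 3 dpf. The control group held 3 libraries, named as control by their titles. Their labels carry the same treatment protocol text as those of the treated libraries. Nothing in the labels names a vehicle, the larvae in each library or separate clutches, and the p-values below therefore speak only to the variation among these 6 libraries, which may be technical. Recovered reads per library ranged from 14763897 to 23507208.

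In a vertebrate photoreceptor, light turns the opsin into an active receptor, which switches on the G protein transducin. Transducin relieves the inhibition of a phosphodiesterase that breaks down cyclic GMP, and channels held open by cyclic GMP then close. Recovery needs opsin kinases, arrestin, the RGS9 complex and new cyclic GMP from guanylate cyclases, while pigment epithelium and Müller glia remake the chromophore. Rods and cones use separate paralogs at nearly every step, and cones carry most of the visual response of young zebrafish larvae.

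Most of these genes were lower in treated larvae. Of 66 members tested (3 were too low), 51 fell, 3 rose and 12 did not pass an adjusted p of 0.05 with limma, so that 77.3% of the members fell against 34.3% of all 20352 tested genes, while 35.0% of all tested genes rose. edgeR's quasi-likelihood test on the recovered reads called 47 members lower and 3 higher, against 32.9% and 36.0% of all genes tested (6698 and 7335 genes), and DESeq2 called 51 lower and 3 higher, against 33.6% and 35.5%. The members' median log2 fold change, on the scale of log2(normalized count + 1) as treated minus control, was -2.31, against 0.01 for all tested genes. In 49 members all treated libraries lay below all control libraries, as they did in 36.8% of all tested genes, and in 3 all lay above, as in 37.4% of all tested genes. A call with a limma log2 fold change of -2 or lower was made in 34 members, 51.5% of them, against 13.3% of all tested genes. Among rod members, 13 of 15 fell and none rose, with a median of -2.16. Cone members included 19 that fell of 27 tested and none that rose, with a median of -2.59. The 15 members of both or unsure place counted 14 that fell and 1 that rose. In libraries of whole larvae, fewer photoreceptors and less RNA per photoreceptor cannot be told apart.

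Rod members together took 0.0336 to 0.0890% of reads in treated and 0.160 to 0.221% in control libraries. Without gnb1b, which serves many other cells too, rod members took 0.0195 to 0.0790% of reads in treated and 0.125 to 0.181% in control libraries. Cone members took 0.0892 to 0.378% of reads in treated and 0.941 to 1.56% in control libraries. In each of these sums the treated library with the highest share was treated replicate 1. It was higher than the other treated libraries for many of the members. Between libraries, log2 values of all tested genes correlated (Pearson, across genes) at 0.928 to 0.972 within the treated group and at 0.672 to 0.731 between the groups.

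**Figure D1:**
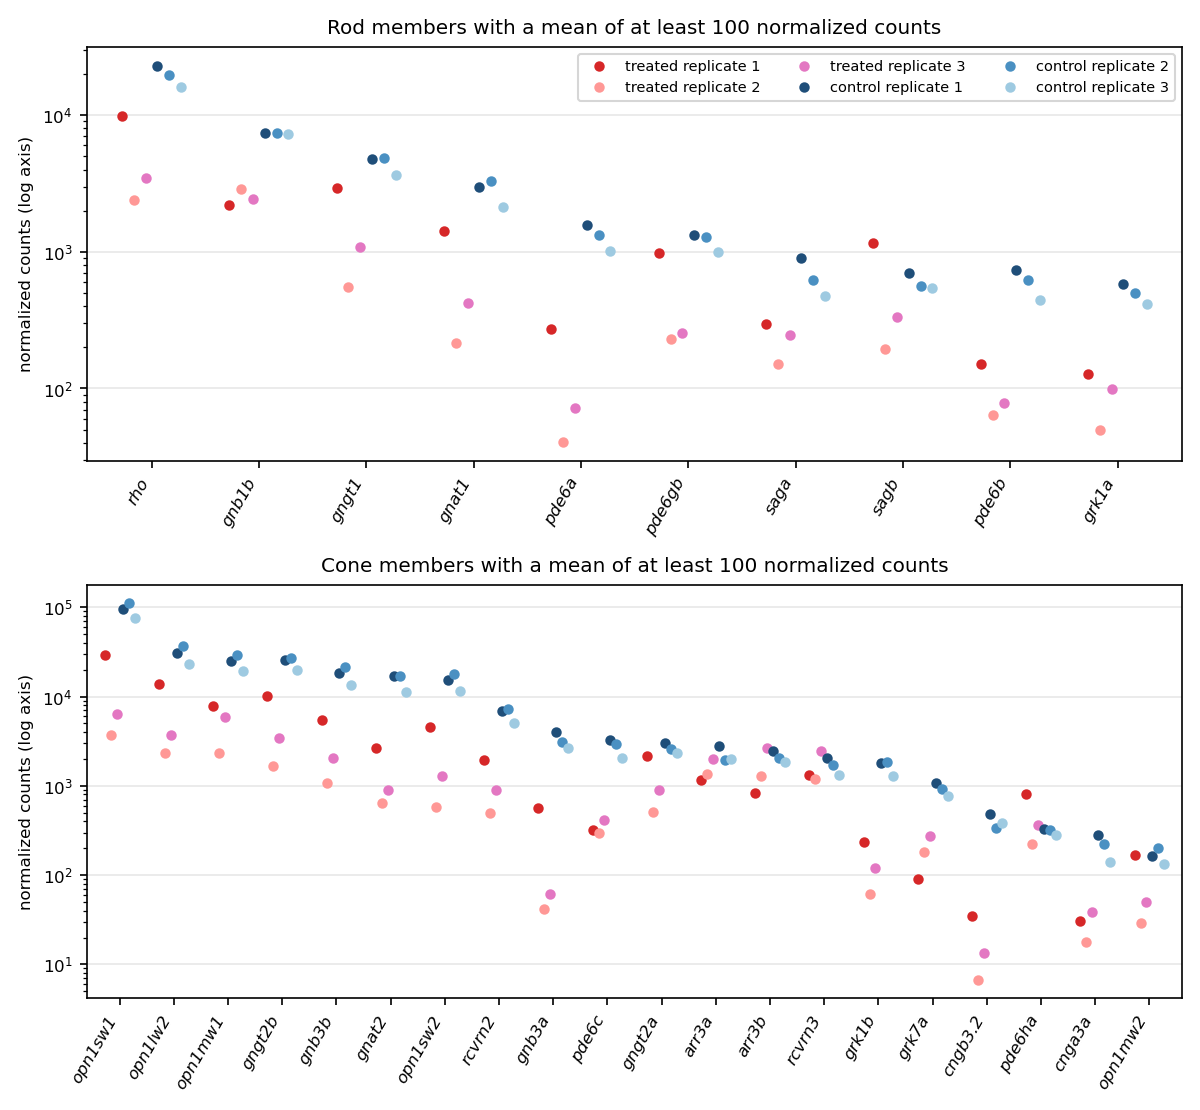
Normalized counts (log axis) of rod members (top) and cone members (bottom) whose mean over the 6 libraries reached 100 normalized counts, 1 point per library, ordered by control mean. Treated points lie below control points for most genes, while arr3a, arr3b, rcvrn3, sagb, pde6ha and opn1mw2 overlap between groups.

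The light receptors came first in the cascade and 5 of the 7 tested opsins fell, against 34.3% of all tested genes. Transcripts of rho, the rod pigment rhodopsin, stood at 9904, 2398 and 3440.1 normalized counts in treated replicates 1, 2 and 3 and at 22963, 19735 and 15979.9 in control replicates 1, 2 and 3. For opn1sw1, the ultraviolet cone opsin, treated libraries held 29219.6, 3719 and 6332 and control libraries 94582, 110594 and 75987 normalized counts in the same order of replicates, which is kept below. The blue cone opsin gene opn1sw2 gave 4560.2, 586 and 1296 in treated and 15304, 17863 and 11623 in control libraries. In all 3 genes the groups did not overlap, and treated replicate 1 lay closest to the controls. Of the green cone opsins, opn1mw1 stood at 7762, 2305 and 5852 against 24924, 28964 and 19483. Of the red cone opsins, opn1lw2 stood at 13935, 2349 and 3683 against 30628, 37191 and 23305. These 5 opsins fell by 3.73-fold (rho), 7.16-fold (opn1sw1), 6.95-fold (opn1sw2), 4.61-fold (opn1mw1) and 4.56-fold (opn1lw2), at adjusted p in the range 0.000695 to 0.00271. The log2 fold changes went from -2.16 to -2.75 (rho), -3.39 to -4.25 (opn1sw1), -3.28 to -4.07 (opn1sw2), -2.36 to -2.72 (opn1mw1) and -2.59 to -3.34 (opn1lw2) when treated replicate 1 was left out. Those of opn1sw1 and opn1sw2 were -2.77 and -2.60 without treated replicate 2.

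The minor copies overlapped between groups. The red opsin gene opn1lw1 stood at 126, 3.37 and 8.59 in treated and 57.1, 66.7 and 47.9 in control libraries, so that treated replicate 1 was above every control and the other treated libraries far below. Its log2 fold change was -1.73 (95% interval -4.09 to 0.64, limma adjusted p = 0.167), -3.16 without treated replicate 1 (adjusted p = 0.000166) and -0.73 without treated replicate 2. The green opsin gene opn1mw2 gave 168, 29.2 and 49.6 against 163, 199 and 134, with a log2 fold change of -1.37 (-2.61 to -0.12, adjusted p = 0.0505) and -2.07 without treated replicate 1 (adjusted p = 0.000136). With the replicate number as a block the adjusted p of opn1mw2 was 0.0368. The remaining green opsin gene, opn1mw3, had 8 reads over all treated and 1 read over all control libraries and was not tested. In the RefSeq annotation of GRCz12tu, where 68 of the 69 members have an entry, opn1lw1 neighbours opn1lw2, and opn1mw1, opn1mw2 and opn1mw3 follow each other. Such close copies can share reads, so the split between them is uncertain. Summed over copies, red opsin transcripts were 4.54-fold lower and green opsin transcripts 4.57-fold lower in treated larvae, 10.1-fold and 5.98-fold without treated replicate 1. Groups did not overlap in either sum (exact permutation p = 0.1, two-sided, the smallest p that 3 against 3 libraries allow).

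The make-up of the opsin reads differed as well. Reads of opn1sw1 were 44.5, 32.7 and 30.6% of all opsin reads in the treated libraries and 50.1, 51.5 and 51.8% in the controls. The rho share was 15.1, 21.1 and 16.6% in treated and 12.2, 9.20 and 10.9% in control libraries. Thus every treated library had a lower ultraviolet opsin share and a higher rhodopsin share than every control library. Shares of opn1sw2 were lower, at 6.94, 5.15 and 6.27% against 8.11, 8.32 and 7.93%, and those of opn1lw2 higher, at 21.2, 20.6 and 17.8% against 16.2, 17.3 and 15.9%. The share of opn1mw1 varied from 11.8% in treated replicate 1 to 28.3% in treated replicate 3, around control shares of 13.2, 13.5 and 13.3%. Of the 8 shares, 5 did not overlap between groups (exact permutation p = 0.1, two-sided, and 0.160 after Benjamini-Hochberg adjustment over the 8). Also among these was the share of the minor copy opn1mw2, which may share reads with its neighbours. It was higher, at 0.256, 0.257 and 0.240% in treated against 0.0866, 0.0927 and 0.0914% in control libraries. Shares are of reads and not per length, and they add up to a whole, so they are not independent of each other.

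**Figure D2:**
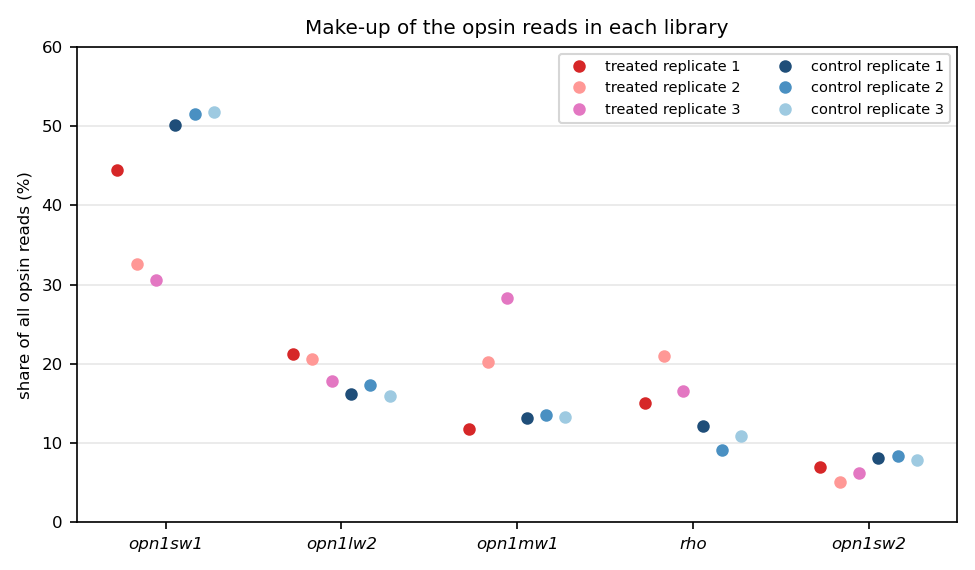
Share of all opsin reads (%) held by the 5 most abundant opsin genes, 1 point per library. The opn1sw1 share is 50.1 to 51.8% in controls and at most 44.5% in treated libraries, and the rho share is higher in every treated library.

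All 8 transducin subunit genes fell, against 34.3% of all tested genes, with log2 fold changes of -4.80 to -1.40. The rod alpha subunit gene gnat1 stood at 1409, 215 and 423 in treated and 3005, 3323 and 2124 in control libraries, and the cone alpha subunit gene gnat2 at 2660.1, 634 and 898 against 16892, 17135 and 11192. They fell 4.13-fold and 10.8-fold (limma adjusted p = 0.00412 and 0.000115), and 8.84-fold and 19.7-fold without treated replicate 1. Without treated replicate 2 instead, the log2 fold change of gnat1 was -1.84, against -2.45 with all libraries. Among the gamma subunits, the rod gene gngt1 gave 2929, 549 and 1084 against 4776, 4851 and 3672. The cone genes gave 10035, 1667 and 3426 against 25554, 26823 and 20075 for gngt2b and 2146, 506 and 906 against 3023, 2563 and 2348 for gngt2a. The groups did not overlap in any of the 3, but treated replicate 1 held 3.04 to 3.94 times the mean of the other treated libraries. Log2 fold changes were -1.87 (gngt1), -2.64 (gngt2b) and -1.40 (gngt2a), with limma adjusted p of 0.00858, 0.00199 and 0.0174. Without treated replicate 1 they were -2.51, -3.33 and -1.96, and gngt2b was at -2.03 without treated replicate 2. The adjusted p of gngt2a was 0.0523, 0.0605 and 0.0514 without treated replicate 3, control replicate 1 or control replicate 2, and 0.0527 by edgeR on recovered reads.

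The beta subunits ranged widely. Transcripts of gnb3a stood at 568, 41.6 and 62.0 in treated and 4041, 3086 and 2640.1 in control libraries, a fall of 14.5-fold (log2 fold change -4.80, SE 0.81, limma adjusted p = 0.000703). Treated replicate 1 held 11.0 times the mean of the other treated libraries, so that the fall was 62.8-fold without it, with a log2 fold change of -5.95, and -4.08 without treated replicate 2. Its paralog gnb3b gave 5529.8, 1068 and 2050.3 against 18479, 21492 and 13647 and fell 6.20-fold, or 11.5-fold without treated replicate 1 (limma adjusted p = 0.000749). The gene gnb1b, whose protein is the beta subunit of rod transducin and serves many other cells, lacked the excess in treated replicate 1. Its values of 2209, 2862 and 2446 in treated and 7440.2, 7364 and 7253 in control libraries were close within each group, and treated replicate 1 was the lowest of the treated libraries. It fell 2.93-fold (log2 fold change -1.56, SE 0.14, limma adjusted p = 1.74e-05).

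In the phosphodiesterase, all 3 catalytic subunit genes fell, as did 1 of the 3 inhibitory subunit genes, against 34.3% of all tested genes. The rod catalytic genes pde6a and pde6b stood at 274, 40.5 and 72.5 and at 150.2, 64.1 and 78.3 in treated libraries, against 1576, 1324 and 1020.5 and 739, 621 and 447 in controls. The cone catalytic gene pde6c stood at 322, 298 and 416 against 3283, 2950.0 and 2037. All 3 fell without overlap, by 10.1-fold, 6.18-fold and 7.98-fold (limma adjusted p = 0.000404, 0.000104 and 5.36e-06), and the treated values of pde6c were much closer to each other than those of pde6a. Without treated replicate 1 the log2 fold changes moved from -3.77 to -4.54 for pde6a and from -2.98 to -2.94 for pde6c, and pde6a was at -3.18 without treated replicate 2. Of the inhibitory subunit genes, the rod gene pde6gb gave 988, 232 and 254 against 1319, 1290.0 and 1002 and fell 2.45-fold (log2 fold change -1.62, limma adjusted p = 0.0147). The fall was 4.96-fold without treated replicate 1 (adjusted p = 7.10e-07). Leaving out treated replicate 2, treated replicate 3 or control replicate 2 gave adjusted p of 0.0528, 0.0567 and 0.0529, and edgeR on recovered reads 0.057. Its paralog pde6ga, at 67.3 ± 43.6 in treated and 104 ± 17.1 in control libraries (mean ± SD, n = 3 per group), did not pass (log2 fold change -0.79, 95% interval -1.75 to 0.16), and did without treated replicate 1 (log2 fold change -1.28, adjusted p = 0.0028). The cone inhibitory gene pde6ha stood at 805, 220.5 and 364 in treated and 331, 320.0 and 279 in control libraries. Treated replicates 1 and 3 were above all controls and treated replicate 2 below them, and the log2 fold change of 0.38 (-0.53 to 1.28, adjusted p = 0.42) was -0.13 without treated replicate 1.

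The channels that cyclic GMP holds open pair an alpha with a beta subunit. Of the 8 rod and cone subunit genes 7 fell, against 34.3% of all tested genes. In cones, the beta subunit gene cngb3.2 stood at 34.8, 6.75 and 13.4 in treated and 481, 338 and 382 in control libraries and the alpha subunit gene cnga3a at 30.3, 18.0 and 39.1 against 281, 223 and 139.5. The groups were far apart in both, and the falls were 21.9-fold and 7.36-fold (limma adjusted p = 4.62e-05 and 0.000141). The fall of cngb3.2 was 39.8-fold without treated replicate 1. The neighbouring copy cngb3.1 fell from 60.6 ± 23.7 to 10.7 ± 1.47 normalized counts, while cnga3b, with 6.75 to 18.1 normalized counts in treated and 14.4 to 33.1 in control libraries, did not pass (log2 fold change -0.93, -2.09 to 0.23, adjusted p = 0.134). Reads may be shared between cngb3.1 and cngb3.2. In rods, the alpha subunit genes cnga1a and cnga1b fell 8.38-fold and 3.97-fold, and the beta subunit genes cngb1a and cngb1b 6.20-fold and 4.42-fold (adjusted p in the range 0.00046 to 0.00676). Leaving out treated replicate 1 made the fall of cnga1a 15.5-fold. All 4 were low genes, with control means of 55.8 to 152 normalized counts. In cngb1a and cngb1b the log2 fold changes of -3.07 and -2.35 became -3.88 and -2.87 without treated replicate 1, and -2.36 and -1.64 without treated replicate 2.

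Active opsins are switched off by phosphorylation and then arrestin. All 4 opsin kinase genes fell, against 34.3% of all tested genes. The rod kinase gene grk1a stood at 128, 49.5 and 98.3 in treated and 583, 498 and 412 in control libraries. Of the cone kinase genes, grk1b stood at 235, 61.9 and 120.3 against 1819, 1840.0 and 1286 and grk7a at 89.7, 182 and 278 against 1079.8, 912 and 761. The falls were 5.41-fold, 11.8-fold and 5.01-fold with no overlap (limma adjusted p = 0.000167, 5.77e-05 and 0.000334), and treated replicate 1 was the highest treated library for grk1a and grk1b but the lowest for grk7a. Leaving it out made the fall of grk1b 18.1-fold. The low gene grk7b fell from 100.4 ± 16.1 to 8.68 ± 5.58 (log2 fold change -3.63, -2.96 without treated replicate 2).

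The cone arrestin genes overlapped between the groups. Transcripts of arr3a, the arrestin of red and green cones in zebrafish, stood at 1167, 1362 and 1998 in treated and 2785, 1942 and 2024 in control libraries. For arr3b, the arrestin of blue and ultraviolet cones, they stood at 831, 1282 and 2645 against 2446, 2043 and 1828. In both genes treated replicate 3 was the highest and treated replicate 1 the lowest treated library, whereas in all 7 tested opsins replicate 1 was the highest and replicate 2 the lowest. The log2 fold change of arr3a was -0.59 (SE 0.23, limma adjusted p = 0.0409), but the call was lost, with an adjusted p of 0.0721, 0.102, 0.158, 0.0554 and 0.0658 without treated replicate 1 or 2 or control replicate 1, 2 or 3. It was 0.0594 with the replicate number as a block and 0.0617 by edgeR on recovered reads. That of arr3b was -0.57 (-1.38 to 0.25, adjusted p = 0.188), and -1.02 without treated replicate 3 (adjusted p = 0.00538). The rod arrestin gene saga, at 297, 151 and 248 against 899, 621 and 472, fell 2.86-fold without overlap (limma adjusted p = 0.0019). Its paralog sagb gave 1166, 195 and 333 against 697, 567 and 545, with treated replicate 1 above all controls and the other treated libraries below them (log2 fold change -0.50, -1.73 to 0.72, adjusted p = 0.426). Without treated replicate 1 the log2 fold change of sagb was -1.23 (adjusted p = 0.00066), while leaving out treated replicate 2 gave 0.0565.

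Recoverins, calcium sensors that hold back the opsin kinases, moved in different ways. The cone gene rcvrn2 stood at 1958, 503 and 909 in treated and 6975, 7267 and 5036 in control libraries and fell 5.72-fold, or 9.10-fold without treated replicate 1 (limma adjusted p = 0.000409). The other cone gene, rcvrn3, stood at 1339.6, 1183 and 2451 against 2062, 1704 and 1338, so that treated replicate 3 was above every control and the groups overlapped (log2 fold change -0.09, -0.72 to 0.54, adjusted p = 0.781, with a sign that changed with the scaling). The gene rcvrna gave 469.7, 91.1 and 219 against 692, 1032 and 409, overlapping in treated replicate 1 and control replicate 3. Its log2 fold change of -1.65 passed (limma adjusted p = 0.0241; -2.22 and 0.000706 without treated replicate 1). It did not pass without treated replicate 2 or 3 or control replicate 1 or 2 (adjusted p = 0.0637, 0.0549, 0.0666 and 0.1). Of the 4 recoverin genes rcvrnb alone rose, from 4.01, 13.3 and 0 in control to 34.8, 21.4 and 31.5 in treated libraries, where every treated library was above every control. Its log2 fold change was 2.83 (SE 0.89, limma adjusted p = 0.0189), 2.77 without treated replicate 3 (adjusted p = 0.0566), and 3.73 or 1.81 without control replicate 2 or 3.

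Of the complex that ends transducin's signal, all 3 genes taken by the name rule fell, against 34.3% of all tested genes. The GTPase-activating protein genes rgs9a and rgs9b stood at 117, 69.7 and 140.3 and 76.2, 59.6 and 67.8 in treated and at 319, 253 and 199 and 641, 599 and 610.3 in control libraries. The gene of their membrane anchor, rgs9bp, stood at 67.3, 6.75 and 8.59 against 186, 168 and 132. Treated values of rgs9b lay within a narrow band far below the controls, while treated replicate 1 held 8.77 times the mean of the other treated libraries for rgs9bp. The falls were 2.36-fold, 9.08-fold and 5.89-fold (limma adjusted p = 0.00467, 2.11e-06 and 0.00362), and 21.2-fold for rgs9bp without treated replicate 1.

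Of the genes that restore cyclic GMP, both retinal guanylate cyclase genes fell, against 34.3% of all tested genes. For gucy2d, values were 160.3, 116 and 166 in treated and 426, 371 and 279 in control libraries, and for gucy2f 66.1, 13.5 and 17.2 against 247, 194 and 173. They fell 2.43-fold and 6.35-fold without overlap (limma adjusted p = 0.00104 and 0.000964), gucy2f 13.4-fold without treated replicate 1. The cyclase-activating protein genes guca1a, guca1b and guca1g fell 2.87-fold, 3.36-fold and 3.78-fold (adjusted p in the range 0.000568 to 0.00514), guca1a from 215, 191 and 152 to 59.4, 55.1 and 80.2. The fall of guca1b was 5.80-fold without treated replicate 1. Expression of guca1e depended on 1 library, with 117, 0 and 1.91 normalized counts in the treated and 89.2, 58.9 and 40.9 in the control libraries. Treated replicate 1 was thus above all controls while treated replicates 2 and 3 were at or near 0. Its log2 fold change of -3.12 did not pass (-6.46 to 0.22, limma adjusted p = 0.0858). The value was -5.16 without treated replicate 1 (adjusted p = 3.99e-05), -1.72 and -2.49 without treated replicates 2 and 3, and the adjusted p was 0.0314 with the replicate number as a block. For guca1c, treated libraries held 10.1, 16.9 and 51.5 and controls 29.1, 24.4 and 22.6 (log2 fold change -0.26, -1.54 to 1.02, adjusted p = 0.691), with treated replicate 3 alone above the controls and a sign that changed with the scaling. Its value was -0.90 without treated replicate 3. The gene guca1d had 0 reads in all treated libraries and 8 reads over the controls. Setting the treated group's sum at 3 reads, the limit a count of 0 allows, put guca1d 2.94-fold below the control mean. The counting error of the 8 control reads is not in that value, and guca1d was not tested.

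Peripherin and its partner rom1 are tetraspanins that shape the rims of outer segment discs. All 6 of their genes fell, against 34.3% of all tested genes. Transcripts of prph2a stood at 1119, 245 and 398 in treated and 4134, 4159.9 and 2633 in control libraries, and those of prph2b at 547, 226 and 313 against 4519, 4167 and 3099.6. They fell 6.20-fold and 10.8-fold (limma adjusted p = 0.000613 and 1.35e-05), and 11.3-fold and 14.6-fold without treated replicate 1. The related prph2la fell from 142 ± 28.2 to 13.7 ± 7.70, with its highest treated value in treated replicate 3. The gene prph2lb gave 44.8, 3.37 and 9.55 against 123, 138 and 53.6 (log2 fold change -2.93, adjusted p = 0.00875; -3.85 and -2.16 without treated replicate 1 or 2). For rom1b, values were 396, 76.5 and 126 against 924, 812 and 616, a fall of 3.93-fold (adjusted p = 0.00328; 7.75-fold without treated replicate 1). The fall of rom1a was small, from 348, 226 and 175 to 168, 92.2 and 159, at a log2 fold change of -0.82 (adjusted p = 0.0448). That call was lost without treated replicate 2 or 3 or control replicate 1 or 2 (adjusted p = 0.144, 0.0552, 0.174 and 0.0897), and by edgeR on recovered reads (adjusted p = 0.0518).

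**Figure D3:**
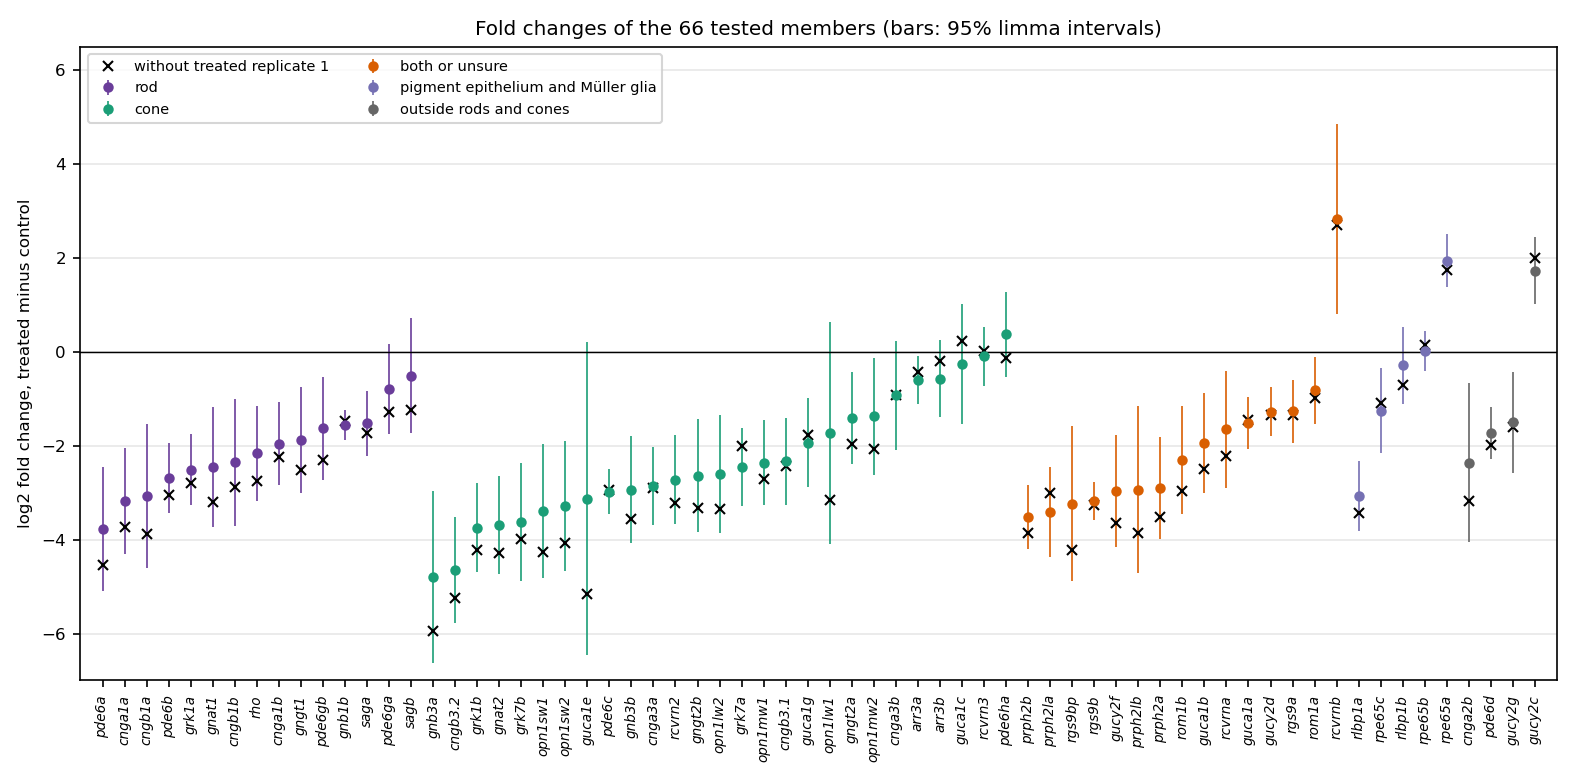
Log2 fold changes of the 66 tested members, treated minus control, with 95% limma intervals, coloured by class. Black crosses give the value without treated replicate 1. Most members lie below 0, and rcvrnb, rpe65a and gucy2c are the 3 that rose.

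The genes that serve the visual cycle outside photoreceptors did not move as a block. Transcripts of rpe65a, the retinoid isomerase of pigment epithelium, rose 3.87-fold, from 368, 413 and 249 in control to 1707, 1007 and 1271 in treated libraries (log2 fold change 1.95, SE 0.25, limma adjusted p = 0.000131). Every treated library was above every control. The gene rlbp1a, for the retinaldehyde-binding protein of zebrafish pigment epithelium, went the other way, from 2733, 2816 and 2058 to 506, 182 and 291, a fall of 7.77-fold (log2 fold change -3.06, limma adjusted p = 4.74e-05). Its Müller glia counterpart rlbp1b stood at 1587, 498 and 904 in treated and 1059.7, 1269 and 966 in control libraries. Treated replicate 1 was above the controls and the other treated libraries below, and the log2 fold change of -0.29 (-1.10 to 0.53, adjusted p = 0.493) changed sign with the scaling. Without treated replicate 1 it was -0.70 (adjusted p = 0.0186). Of the other isomerase genes, rpe65b gave 299, 346 and 433 against 353, 311 and 385 (log2 fold change 0.03, -0.40 to 0.46, adjusted p = 0.895). The Müller glia gene rpe65c fell from 86.0 ± 42.1 to 33.3 ± 7.95 (log2 fold change -1.25, adjusted p = 0.02; 0.0561 and 0.08 without control replicate 1 or 3). The genes rpe65b and rpe65c neighbour each other in RefSeq and may share reads.

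Among 12 pigment epithelium and pigment cell markers, 2 of which are rpe65a and rlbp1a, 10 rose and 1 fell, against 35.0% and 34.3% of all tested genes, with a median log2 fold change of 1.88. The list took 0.0884 to 0.138% of reads in treated and 0.0440 to 0.0574% in control libraries. The melanin genes tyr, pmela and slc45a2, which skin melanophores also express, rose 35.1-fold, 4.40-fold and 4.76-fold. Müller glia markers numbered 3 that rose and 3 that fell of 7, shares near those of all tested genes, and all 7 are known from other tissues too. The 4 with the smallest p, apoeb, gfap, slc1a3a and glula, had log2 fold changes of 3.55, -2.11, 1.37 and -1.48. Summed, the 7 took 0.185 to 0.280% of reads in treated and 0.125 to 0.148% in control libraries. The rise of that sum rested on apoeb, at 42538, 29002 and 27318 against 2844, 2813 and 2622. The part of pigment cells and Müller glia in the values of the rpe65 and rlbp1 genes was not tested.

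The name rule also took genes whose main known work lies elsewhere. The gene gucy2c, in mammals the intestinal receptor of guanylin, rose 3.47-fold, from 49.1, 32.2 and 40.9 to 94.2, 184 and 145 (limma adjusted p = 0.00108). For pde6d, a carrier of lipid-modified proteins to cilia in many cells, values went from 768, 752 and 779 to 326, 161 and 233, a fall of 3.19-fold (limma adjusted p = 0.000238). The olfactory channel gene cnga2b fell from 30.6 ± 2.93 to 7.94 ± 8.84 and the receptor-type cyclase gene gucy2g from 21.3 ± 5.05 to 6.98 ± 2.18. The call of cnga2b was lost without control replicate 2 or 3 (adjusted p = 0.0551 and 0.057). Its log2 fold change of -2.36 was -3.17 and -1.59 without treated replicate 1 or 2. The call of gucy2g was lost without treated replicate 2 or control replicate 1 or 2 (adjusted p = 0.0532, 0.0689 and 0.0652). The other olfactory channel gene, cnga4, had 36 reads over the treated and 13 over the control libraries and was not tested.

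Treated replicate 1 held more phototransduction transcripts than the other treated libraries. In 48 of 66 members it was the highest treated library, against 39.4% of all tested genes, and in 37 it held at least 2 times the mean of treated replicates 2 and 3, against 9.2% of all tested genes. The median of that ratio was 3.39 for rod and 2.76 for cone members, and 0.98 for all tested genes. The order replicate 1 above 3 above 2 held in 46 members, 69.7% of them, against 22.4% of all tested genes. This was so for 13 of 15 rod members and all 7 tested opsins. The order 3 above 2 above 1 held in 6 members, against 20.2% of all tested genes, and these were arr3a, arr3b, grk7a, guca1c, prph2la and rpe65b. Replicate numbers carry no order of their own, so these orders only describe which libraries were high. Treated replicate 1 was below the mean of treated replicates 2 and 3 in 14 members, among them also pde6c, gnb1b, guca1a, guca1g and rcvrn3. In the control group, replicate 3 was the lowest library in 53 of 66 members, against 6174 of all 20352 tested genes. It was also the library with the fewest recovered reads, at 14763897. The values compared are already scaled per library, and a part of depth in this was not tested.

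**Figure D4:**
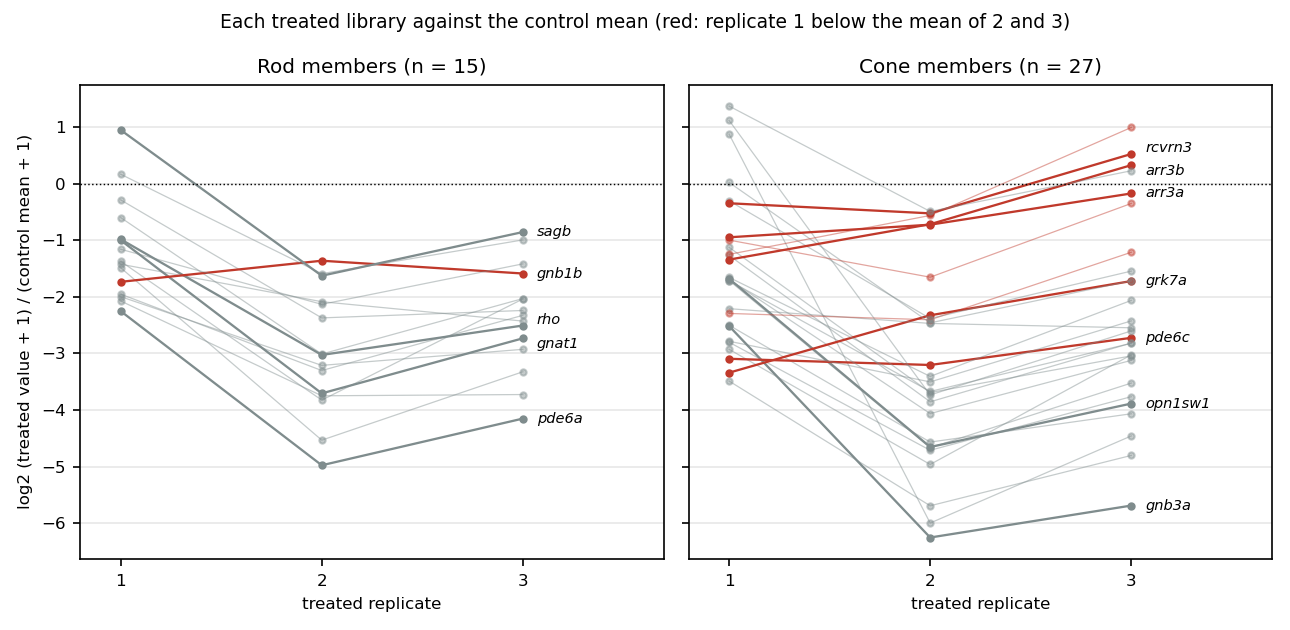
Log2 of each treated value over the control mean (both + 1) in treated replicates 1, 2 and 3, for 15 rod members (left) and 27 cone members (right). Each line only joins the values of 1 gene, since replicates have no order. Grey genes are higher in treated replicate 1 than in the mean of replicates 2 and 3, and red genes, among them arr3a, arr3b, grk7a, rcvrn3, pde6c and gnb1b, are lower.

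Without treated replicate 1, 56 of 66 members fell and 3 rose, against 36.4% and 36.8% of all tested genes. The median log2 fold change was then -2.73 for all members, -2.75 for rod members, of which all 15 fell, and -2.94 for cone members, of which 21 of 27 fell. With all libraries, 49 of the 51 members that fell had every treated library below every control, and rcvrna and arr3a overlapped. Of all tested genes, called or not, 36.8% had every treated library below every control. Calls and overlap rest on the same libraries, so the overlap adds no separate support to the calls.

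Rod and cone paralogs at the same step were compared within each library as the log2 ratio of rod over cone. For 7 pairs, 3 ratios were higher in every treated library than in every control library and 4 overlapped. The ratio of gnat1 over gnat2 was -0.92, -1.56 and -1.09 in treated and -2.49, -2.37 and -2.40 in control libraries. That of gngt1 over gngt2b was -1.78, -1.60 and -1.66 against -2.42, -2.47 and -2.45, and that of rho over the summed cone opsins -2.49, -1.91 and -2.32 against -2.85, -3.30 and -3.03. In these 3 pairs the cone gene was lower relative to the rod gene in treated libraries, by mean differences in log2 ratio of 1.23, 0.77 and 0.82 (exact permutation p = 0.1 each, two-sided, the smallest possible, and 0.233 after Benjamini-Hochberg adjustment over 7 pairs). The gamma subunit result depended on the copy paired. The unpaired cone gene gngt2a fell less than gngt1 (log2 fold changes -1.40 and -1.87), and gngt2b fell more (-2.64). The summed cone opsins were mostly opn1sw1. Against -2.16 for rho, log2 fold changes were -3.39 (opn1sw1), -3.28 (opn1sw2), -2.59 (opn1lw2) and -2.36 (opn1mw1). Ratios of rho to single cone opsins were not among the pairs. The ratio of pde6a over pde6c ran from -2.85 to -0.23 in treated libraries around control values of -1.07 ± 0.0798 (mean ± SD, n = 3). That of grk1a over grk7a ran from -1.86 to 0.51 around -0.89, -0.87 and -0.89. In both, and in cnga1a over cnga3a, treated replicate 1 was above and the other treated libraries below every control. In saga over arr3a, treated replicate 1 lay among the controls and the others below them. Exact permutation p for the 4 overlapping pairs was 0.2 to 1.

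Other photoreceptor genes were taken from lists of named genes. Of 31 tested rows of outer segment, transport and ciliary genes, 25 fell and none rose, against 34.3% and 35.0% of all tested genes. Their median log2 fold change was -2.35, at a share of 0.0109 to 0.0252% of reads in treated and 0.0829 to 0.117% in control libraries. The 4 with the smallest p were unc119b, a carrier of lipid-modified proteins, abca4b, a retinoid flippase of discs, the sodium-calcium exchanger gene slc24a2 and the synaptic calcium channel gene cacna1fb. They fell 4.26-fold, 5.02-fold, 7.24-fold and 42.9-fold (adjusted p in the range 1.74e-05 to 8.45e-05), cacna1fb 124-fold without treated replicate 1. Among 10 tested photoreceptor fate factors, 8 fell and none rose, against 34.3% and 35.0% of all tested genes, with a median of -2.36. The cone receptor gene thrb, which red cones need, the photoreceptor factor gene crx, six7, which green and blue opsin expression needs, and otx5 fell 20.2-fold, 14.0-fold, 11.7-fold and 3.77-fold, thrb 30.6-fold without treated replicate 1. For crx the libraries stood at 435, 154 and 238 in treated and 4579, 3934 and 3093 in control larvae. The factor gene of rods, nrl, was too low for a test, with at most 9.55 normalized counts in a treated and 2.82 in a control library, each treated library being above each control. The genes tbx2b and prdm1a did not pass.

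Visual cycle genes outside the name rule were mixed. Of 20 tested, 10 rose and 4 fell, against 35.0% and 34.3% of all tested genes, with a median of 0.48, and the members with the smallest p included the plasma retinol carrier gene rbp4 of the liver, which rose 20.7-fold, and degs1 and rdh10b, which rose 2.15-fold and 2.52-fold. The retinol dehydrogenase gene rdh12 fell 3.01-fold. Summed, the list took 0.200 to 0.385% of reads in treated and 0.0505 to 0.0690% in control libraries. The rise of that sum rested on rbp4, at 70723, 33455 and 47874 against 2410, 2521 and 2429. Chosen after their values were seen, the photoreceptor dehydrogenase gene rdh8b and the retinoid carrier gene rbp3 of the space between photoreceptors and pigment epithelium fell, at log2 fold changes of -3.57 and -1.51 (limma adjusted p = 0.000231 and 0.0215), and -4.22 and -2.18 without treated replicate 1. The groups overlapped in rbp3, which did not pass by edgeR on recovered reads (adjusted p = 0.0752). Also chosen after their values were seen, the opsin-like genes rgra and rgrb, of pigment epithelium and Müller glia, rose 2.48-fold and 3.73-fold. The log2 fold change of rgra was 0.59 without treated replicate 1. Other genes of the list went differently. The dehydrogenase genes rdh12l, dhrs3a and dhrs3b rose, at log2 fold changes of 1.84, 1.54 and 0.95 (limma adjusted p = 0.000219, 0.000378 and 0.00809). The gene lrata fell (log2 fold change -1.83, limma adjusted p = 0.0118). Among the 6 that did not pass, rdh8a, rdh5 and rrh had log2 fold changes of 0.10, 0.05 and -0.38.

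Markers of other retinal neurons, the pineal organ and the lens were also measured. All 7 tested bipolar cell markers and all 13 markers of amacrine, horizontal and ganglion cells fell, against 34.3% of all tested genes. Their median log2 fold changes were -3.64 and -2.86, and -4.60 and -3.67 without treated replicate 1. Bipolar markers took 0.00375 to 0.00738% of reads in treated and 0.0263 to 0.0388% in control libraries, and the 13 markers 0.0232 to 0.0282% of reads in treated and 0.180 to 0.223% in control libraries, many of which other neurons of the brain share. Of 8 tested pineal markers 7 fell, against 34.3% of all tested genes, with a median of -1.79 and a sum of 0.00136 to 0.00245% of reads in treated and 0.00800 to 0.00928% in control libraries. The pineal rhodopsin gene exorh, chosen after its values were seen, stood at 37.0, 52.9 and 56.3 in treated and 118, 133 and 98.7 in control libraries, with treated replicate 1 the lowest. In 6 of the 8 tested pineal markers the order was 1 above 3 above 2, against 22.4% of all tested genes. For these markers treated replicate 1 held 1.33 times (median) the mean of the other treated libraries. The marker with the smallest p, the pineal opsin gene parapinopsinb, stood at 11.2, 5.62 and 9.55 against 767, 458 and 630.1 and fell 70.3-fold. Pineal photoreceptors share several rod and cone genes, and the untested parapinopsina was at 0 in treated replicate 2 and control replicates 1 and 3. The part of the pineal organ in the members' values was not tested. Of 13 lens markers 9 fell and none rose, against 34.3% and 35.0% of all tested genes, with a median of -2.58. Their share was 0.144, 0.0177 and 0.0230% of reads in treated and 0.132, 0.309 and 0.117% in control libraries, with control replicate 2 far above the other controls. Without treated replicate 1 all 13 fell, against 36.4% of all tested genes, with a median of -3.25. Treated replicate 1 held 5.08 times (median) the mean of the other treated libraries for lens markers, 1.62 times for bipolar markers and 1.63 times for amacrine, horizontal and ganglion cell markers. The part of these other eye cells in the members' values was not tested.

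**Figure D5:**
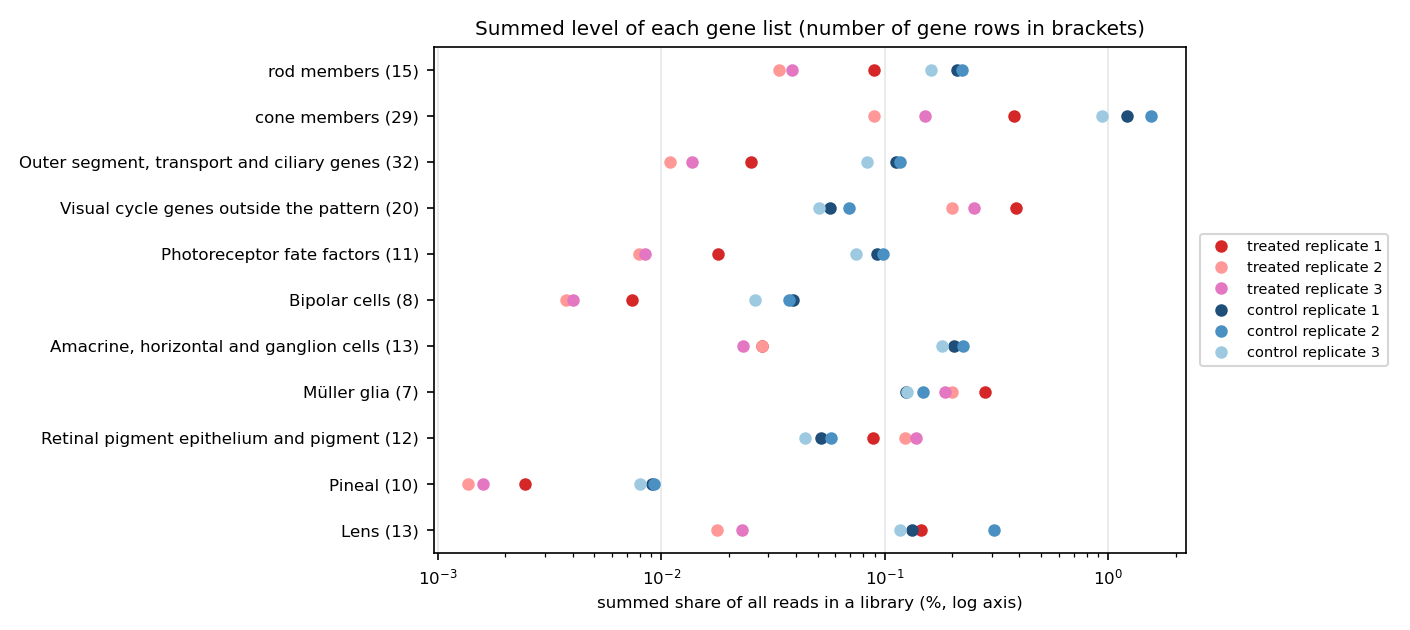
Summed share of all reads (%, log axis) of rod members, cone members and 9 other gene lists, 1 point per library, with the number of gene rows in brackets. Treated libraries lie below controls for photoreceptor, bipolar, amacrine, horizontal and ganglion cell and pineal lists and above for pigment markers. They also lie above for Müller glia markers and visual cycle genes outside the name rule, sums whose rise rested on apoeb and rbp4. The lens value of treated replicate 1 lies above control replicates 1 and 3 and below control replicate 2, the highest control.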

How the data were processed

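RNA was measured in 6 libraries of whole zebrafish larvae, 3 treated and 3 control, after messenger RNA capture, per the labels' protocols. The authors deposited a signal per gene and library, normalized counts, in which each library's counts had been scaled by a single factor. The submitters' processing notes name STAR 2.7.10a, Salmon 1.9.0, DESeq2, fastp 0.23.2 and bcl2fastq 2.20.0.422, as well as build GRCz11, with no role or filter stated. How reads shared between close copies were counted is not given in the sources used here.

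Dividing by the value of 1 read in each library gave whole reads, within 0.01 for 100% of values. The 20352 of 24470 genes that averaged 10 or more normalized counts were tested by limma 3.58.1 (R 4.3.3) as log2(normalized count + 1), with a trend on mean level, without covariates and two-sided. P-values were adjusted over all of them (Benjamini-Hochberg). The added 1 pulls changes of low genes toward 0 on this scale, and a fold is the ratio of the 2 group means. Where the libraries of a group were uneven, log2 fold changes could instead exceed the fold. For guca1e the log2 fold change was -3.12 by limma and -0.64 by edgeR, and the fall by group means was 1.60-fold. The fit was also run on simulated counts with few changed genes and no outlying library. In these data 69.3% of tested genes were called, so that run does not test the fit under these conditions. Alternatives covered pseudocount, filter, scaling, limma options, a replicate block, leaving out single libraries, and count tests on recovered reads (edgeR 4.0.16, DESeq2 1.42.0). Per-library values are given for members averaging 100 or more normalized counts, those that rose, and those where 1 library was at least 4 times the next of its group, and up to 4 genes with the smallest p are named in other lists. Members and lists were chosen with earlier results of these data known. Floors cover only the counting error of the group at 0 reads. Gene lengths were not used, so levels of different genes are not compared. Figures were drawn with matplotlib 3.10.9.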

Additional observations from a re-analysis of the deposited data

How the results depend on the processing

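Counts of calls over all genes, over all members, and over rod and cone members stayed within 1.5 times of the reported ones under every alternative run. Medians of log2 fold changes ran from -2.75 to -1.73 for rod and from -2.94 to -2.06 for cone members. Of 66 tested members, 45 kept their direction and their side of the threshold under every alternative, 43 of them among the 51 that fell. Without the filter 1 photoreceptor fate factor, nrl, rose, against 0 with it. Upper-quartile scaling moved the median of all genes by 0.32 on the log2 scale. Relative to that median, rod and cone members stood at -2.16 and -2.60, against -2.17 and -2.61 as deposited, and 46 members fell. Among the members and paralog ratios, signs turned in 6 members that had not passed and in 2 ratios. Log2 fold changes of guca1c were 0.0428 with upper-quartile scaling, 0.299 with arrayWeights, 0.0856 by edgeR and 0.0554 by DESeq2. Upper-quartile scaling gave 0.23 for rcvrn3 and 0.0355 for rlbp1b, quantile normalization 0.22 and 0.0808, and arrayWeights 0.13 for rcvrn3. With 1 library left out at a time, values ran from -0.897 to 0.225 for guca1c, -0.412 to 0.113 for rcvrn3, -0.700 to 0.135 for rlbp1b, -0.126 to 0.806 for pde6ha, -1.23 to 0.0565 for sagb and -0.113 to 0.153 for rpe65b. The group difference in the log2 ratio grk1a over grk7a ran from -0.792 to 0.391 and that in the log2 ratio cnga1a over cnga3a from -0.816 to 0.191; the cause was not tested. Deviations of same-numbered libraries correlated at -0.0574 to 0.0497 and those of unlike numbers at -0.0497 to 0.0713, and not every library correlated best with its own number. With 3 libraries per group these values cannot decide whether the numbers pair libraries, and the labels do not say. With the replicate block, 52 members fell, against 51, and 3 rose; arr3a lost its call and guca1e and opn1mw2 gained one. Depth limits the lowest members, of which guca1d, opn1mw3 and cnga4 were not tested.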
